A study of Mus musculus with 9 samples.

Results

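The genes described here are those whose mean expression differed at least 2-fold between a high and a low dose of an injected virus, in mouse brain tissue, while neither dose differed 2-fold from the vehicle group. The rule was applied to group means of FPKM, a level per transcript length and library size, in the 3 groups PBS, LowDose and HighDose. Of 1710 genes in the deposited table, 103 met these limits, 5 were left out because their symbols belong to families set aside by the rule (Kif11, Col20a1, Slc25a45, Ccnb1 and Mcm3), and 98 remained. Of the 98, 92 were higher and 6 lower in HighDose than in LowDose. The values that chose the genes came from all 9 libraries and all 3 comparisons, so levels and differences are given as descriptions. Names are GENCODE M21 names of the deposited identifiers: 16 of the 98 carried another symbol in the table, and 2 carried none. If GENCODE names had decided which symbols were left out, 3 more genes would have gone (Gm3512, Gm45140 and 1700007K13Rik).

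The libraries were made from total RNA of wild-type mice, from tissue labelled "brain ctx". Every sample is labelled as having had a stereotaxic viral injection, the PBS group included, and PBS is a buffered salt solution. The centre of the infected area was taken 10 days later. Each group had 3 libraries. The labels do not say whether each came from its own animal, so the spread is one between libraries. AAV (adeno-associated virus), a DNA virus used as a gene carrier, and the cGAS-STING pathway are named in the title of the series. The amounts behind LowDose and HighDose, and the age and sex of the mice, were not used here.

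The enzyme cGAS binds DNA in the cytoplasm and makes a messenger that activates STING, which leads to type I interferon and inflammatory genes. Microglia, the resident macrophages of the brain, take part in such responses: they sense microbial products, engulf debris, divide and change their surface receptors, and leukocytes can enter from the blood. Neurons switch on activity-dependent genes, astrocytes and vessels alter their matrix, and dividing cells express genes of the mitotic spindle. The 98 genes are described by role below, and 0 of them are on the lists of type I interferon-stimulated genes, astrocyte markers or lymphocyte markers. The roles were assigned after the values had been seen.

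The recovered library totals were 18.3 to 23.7 M reads or read pairs (M, 1e6), and 3 counts correspond to 0.126 to 0.164 counts per M of the library total (CPM). Every listed gene was itself at least 2-fold apart in some pair of groups: 1508 between HighDose and LowDose, 1581 between HighDose and PBS and 288 between LowDose and PBS. Of the library totals, the listed genes held 1.34% to 1.61% in PBS and LowDose and 3.9%, 5.21% and 6.04% in HighDose libraries 1 to 3. All 20 genes of a list of type I interferon-stimulated genes were called higher in HighDose than in LowDose (edgeR, adjusted p under 0.05), and their means were higher under every scaling run. Of 18 lymphocyte markers 17 were in the table, none a gene described here, with summed levels of 1.07 to 1.58 CPM in PBS, 1.12 to 1.67 in LowDose and 44.4 to 79.3 in HighDose. Of these 17, 1 was at 0 in all PBS libraries and 2 in all LowDose libraries. Among 19 listed striatal markers, of 24 on that list, the sums were 1147 to 1702 CPM in PBS, 392 to 955 in LowDose and 391 to 458 in HighDose. The lists for cortical excitatory neurons and interneurons had 0 genes in the table, so the tissue label could not be checked on them. In bulk tissue, fewer cells of a type and less RNA per cell cannot be told apart.

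The genes were grouped under a label that says they differ between the doses only. The rule itself places the mean FPKM of PBS between those of the doses, so part of each difference lies on either side of PBS, and the order of the groups is no finding. In mean CPM, 89 genes had LowDose lowest, PBS between and HighDose highest, 6 had the opposite order, and 3 (Ecm1, Tirap and Atp8b1) had PBS lowest. The median log2 ratio of mean CPM over the 98 genes was 1.13 for HighDose over LowDose, 0.83 for HighDose over PBS (-0.91 in the fit with TMM factors) and -0.26 for LowDose over PBS. A median of 71.7% of the log2 distance between the doses lay between PBS and HighDose, and 85 genes had more than 50% of it there. These values describe the selection.

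In a model across all 1583 tested genes (edgeR quasi-likelihood test, Benjamini-Hochberg adjusted p under 0.05), 98 of the 98 were called between HighDose and LowDose, where 95.1% of all tested genes were called. Of these, 92 were higher in HighDose (88.1% of all tested genes) and 6 lower (7.08%). Between HighDose and PBS 76 were called, against 97% of all tested genes, with 72 higher (86.3%) and 4 lower (10.7%) in HighDose. Between LowDose and PBS 0 were called, against 2.59% of all tested genes (0.442% higher and 2.15% lower), and 9 had an unadjusted p under 0.05. The DESeq2 Wald test also called 0 there, with 8 under 0.05 unadjusted, and limma-voom called 0, with 9. The rule used these comparisons, and the counts are given as descriptions. The median log2 difference of all tested genes was 1.88 between HighDose and LowDose and 1.9 between HighDose and PBS, and the 2-fold limit against PBS holds the 98 genes below the latter.

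Directions here are relative to the library total, and 92 of 98 genes are higher in HighDose than in LowDose on that scale, but 0 or nearly 0 are when libraries are scaled within the table. With TMM factors from the listed genes 1 of 97 tested genes had a log2 difference above 0, with DESeq2 size factors 3 of 98 and with the listed sum of counts 0 of 98. Against PBS the median log2 difference of the 98 genes in HighDose was 0.83 on library totals and -0.91, -0.85 and -0.84 with these 3 scalings, where 0 of 97, 1 of 98 and 1 of 98 were above 0. Between the doses the scalings move the median of all tested genes from 1.88 to -0.05, 0.03 and -0.15. In each role below, the median with TMM factors is given in the sentence that states the direction.

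**Figure D1:**
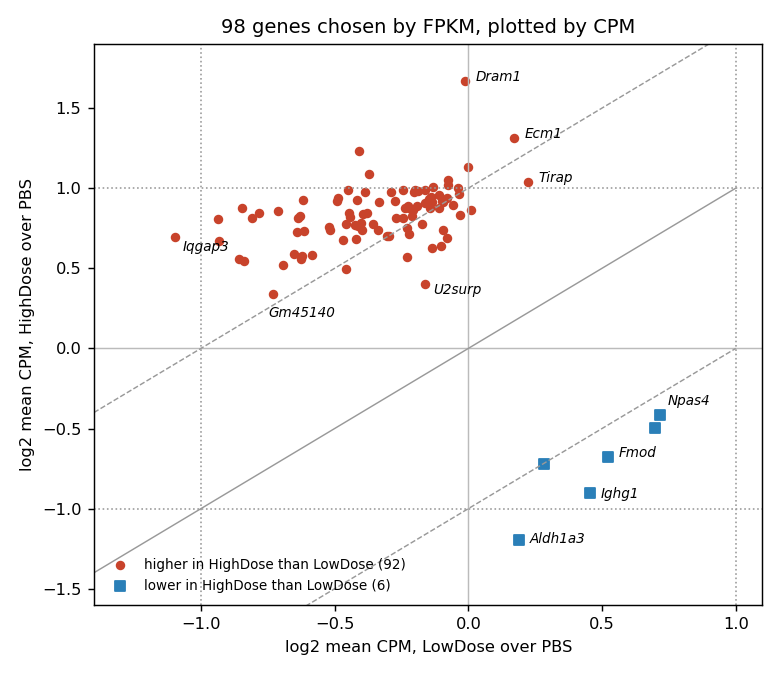
Each point is 1 of the 98 genes, placed by its log2 ratio of mean CPM (3 libraries per group) for LowDose over PBS (horizontal axis) and HighDose over PBS (vertical axis); dotted lines mark 2-fold from PBS, the solid diagonal equal levels at both doses and the dashed diagonals 2-fold between doses. The 92 circles lie above the diagonal and the 6 squares below it, on the library total scale, and 1 of 97 genes stays above 0 with TMM factors; 10 genes lie at or beyond 2-fold from PBS on the vertical axis because the genes were chosen by FPKM.

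Surface and signalling genes of microglia and leukocytes made up the largest role, with 18 genes, of which 17 were higher and 1 lower in HighDose than in LowDose (median log2 difference 1.15, or -0.62 with TMM factors). Their median was 0.86 for HighDose against PBS, where 13 of 18 were called (97% of all tested genes). It was -0.28 for LowDose against PBS. The lymphocyte marker sums given above were also highest in HighDose on the library total scale. With TMM factors 16 of the 17 lymphocyte markers kept a higher mean in HighDose than in LowDose, unlike this role. The part of lymphocytes in the role was not tested. Tmem119 (ENSMUSG00000054675, chr5:113793729-113800516, minus strand), a surface protein used as a marker of resident microglia, had 18.4, 25.9 and 21.1 CPM in PBS, 18.8, 20.1 and 23.2 in LowDose and 41.5, 49.6 and 44.2 in HighDose. HighDose libraries held about the same level as each other and all stood above the PBS and LowDose libraries, which overlapped (1.12 ± 0.22 between the doses and 1.05 ± 0.22 against PBS, log2 difference ± SE). Selplg (ENSMUSG00000048163, chr5:113818536-113832644, minus strand), which encodes the ligand PSGL-1 for selectins and is highly expressed in microglia, lies 18020 bases from Tmem119. It had 28.6, 35.9 and 32.4 CPM in PBS, 24.4, 30.6 and 27.8 in LowDose and 49.8, 64.4 and 65.4 in HighDose. The pattern was that of Tmem119, with no overlap between HighDose and either other group. The distance between them was the shortest between any neighbouring genes of the 98; the next pair, Fam72a and Rab7b on chromosome 1, is 148823 bases apart.

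Among 16 microglial markers, 9 were in the table. Of the 8 others, 5 were called higher and 3 lower in HighDose than in LowDose (3 and 5 by their means with TMM factors), and their summed level was 111 to 137 CPM in PBS, 103 to 110 in LowDose and 144 to 166 in HighDose. P2ry12, a purine receptor of resting microglia, had 39.6, 41.5 and 33.6 CPM in PBS, 37.3, 29.5 and 24.8 in LowDose and 22.2, 19.9 and 16.3 in HighDose, and was lowest in HighDose. Olfml3, a secreted microglial protein, had 20.7, 27.7 and 20.1 CPM in PBS, 20.1, 19.3 and 19.1 in LowDose and 48.7, 57.9 and 64.5 in HighDose. On the library total scale, the resident marker Tmem119 was thus on the side of Olfml3, Aif1, Tyrobp, Itgax and Clec7a. It was opposite to P2ry12, Fcrls and Gpr34, which had lower means in HighDose than in LowDose. With TMM factors Tmem119, Olfml3 and P2ry12 all had lower means in HighDose than in LowDose. The part of cell number in the levels of Tmem119 and Selplg was not tested.

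Inside the cell, lipid and antigen receptor signalling genes of leukocytes had the same order of means. Inpp5d, which encodes the inositol phosphatase SHIP1, a brake on signals from immune receptors, had 15.8, 21 and 14.9 CPM in PBS, 15.3, 17.4 and 16.4 in LowDose and 30.6, 37.4 and 36.6 in HighDose. Dapp1, an adaptor that binds phosphoinositides below the B cell receptor, had 4.85, 5.57 and 4.66 CPM in PBS, 4.17, 3.24 and 4.11 in LowDose and 7.61, 9.71 and 12.3 in HighDose. Gmip, a GTPase-activating protein, had 4.52, 5.86 and 4.66 CPM in PBS, 3.5, 4.5 and 4.7 in LowDose and 8.79, 9.62 and 11.5 in HighDose. In all 3 genes the HighDose libraries lay above every other library, and in Dapp1 the LowDose libraries also lay below every PBS library. Wipf1, which holds the actin regulator WASP in its inactive form, had 14.2, 14.3 and 14.8 CPM in PBS, 12.9, 15 and 10.5 in LowDose and 19.4, 25.4 and 29.5 in HighDose. Scarf1, a scavenger receptor, had 3.22, 3.0 and 3.55 CPM in PBS, 2.32, 3.1 and 3.05 in LowDose and 5.86, 6.12 and 5.76 in HighDose. Its HighDose libraries differed little from each other, and PBS and LowDose overlapped. Lrmp, a membrane protein of lymphoid cells, was among the genes with the highest ratio between the doses (1.73 ± 0.45), with 1.09, 1.21 and 0.968 CPM in PBS, 0.717, 0.405 and 0.588 in LowDose and 1.4, 2.3 and 2.04 in HighDose. Tbc1d10c, a GTPase-activating protein of lymphocytes, had 1.14, 0.581 and 0.738 CPM in PBS, 0.717, 0.45 and 0.267 in LowDose and 1.23, 1.39 and 1.82 in HighDose. Neither gene exceeded 2.30 CPM in any library.

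Sensors of bacterial products gave a mixed picture. Tirap, an adaptor that links Toll-like receptors to MyD88, had 2.62, 3.1 and 2.17 CPM in PBS, 2.36, 3.1 and 3.74 in LowDose and 5.91, 4.35 and 5.94 in HighDose, and was 1 of the 3 genes whose mean was lowest in PBS. Its difference from PBS (1.04 ± 0.31) was larger than that between the doses (0.82 ± 0.31). Cd14, the co-receptor that hands lipopolysaccharide to TLR4, had 2.45, 3.68 and 2.4 CPM in PBS, 1.81, 2.97 and 2.14 in LowDose and 4.33, 3.64 and 5.94 in HighDose. HighDose and PBS overlapped by 1 library on each side, in contrast to HighDose and LowDose. Lbp, the secreted protein that carries lipopolysaccharide to CD14, had 1.69, 2.08 and 6.73 CPM in PBS, 1.69, 2.16 and 2.03 in LowDose and 1.97, 7.7 and 5.63 in HighDose. The groups overlapped: 1 PBS library was among the 3 highest and 1 HighDose library was at the LowDose level. Lbp is also on the list of choroid plexus markers, and the other 2 listed genes of that list moved with it in PBS. Aqp1, a water channel, had 1.85, 0.92 and 4.01 CPM in PBS, 1.98, 1.8 and 1.98 in LowDose and 5.12, 4.98 and 8.71 in HighDose. Kcnj13, a potassium channel, had 0.382, 0.387 and 4.37 CPM in PBS, 0.59, 0.462 and 1.18 in LowDose and 1.31, 1.77 and 2.9 in HighDose. PBS library 3 was the highest PBS library for all 3 genes; the part of choroid plexus tissue in the value of Lbp was not tested.

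The only gene of this role that was lower in HighDose was Ighg1, the constant region of an immunoglobulin G heavy chain, with 4.74, 4.7 and 1.15 CPM in PBS, 1.6, 5.71 and 7.21 in LowDose and 1.44, 2.49 and 1.73 in HighDose. Values from 1.15 to 7.21 CPM occurred in PBS and LowDose, and HighDose lay inside that range. Ighg1 is expressed by plasma cells, and immunoglobulin genes share similar sequence, so its counts may include reads of related genes. The remaining genes of the role were Ptger4 (a prostaglandin receptor), Tnfaip8l2, Tnfrsf13b (the receptor TACI), Ly75 (an endocytic receptor of dendritic cells) and AI467606, and each was between 0.629 and 4.69 CPM in every library.

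**Figure D2:**
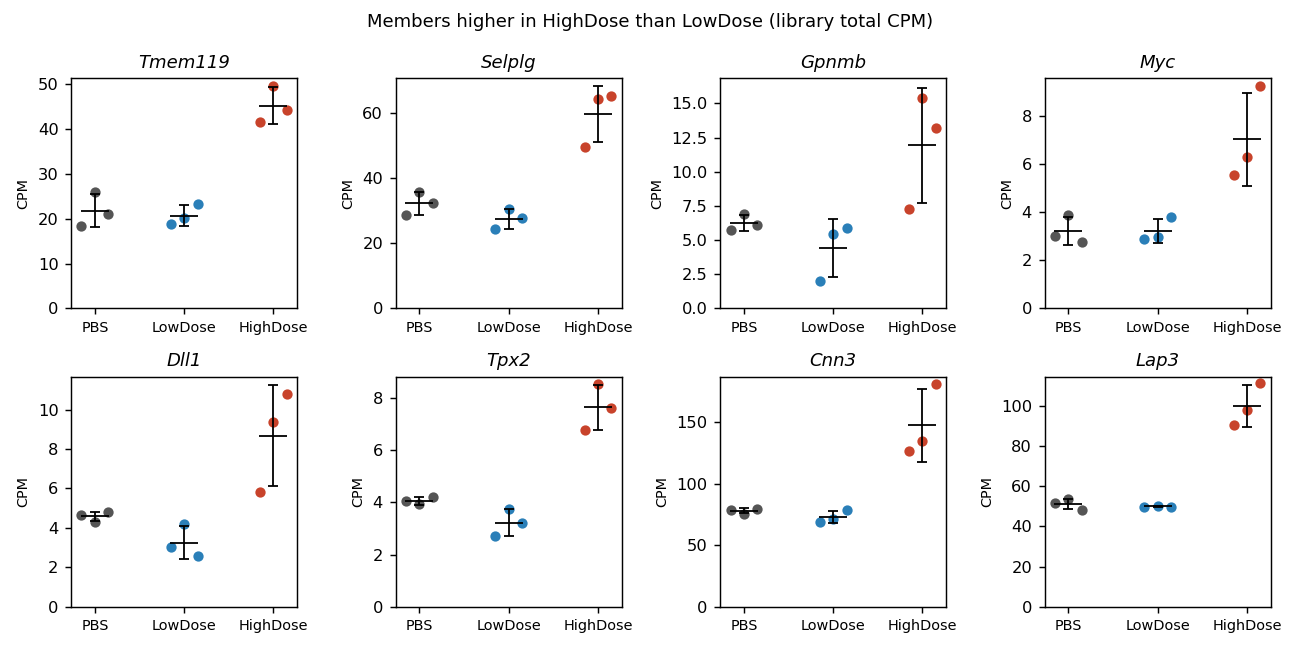
CPM of the library total (vertical axis, from 0) in each library for 8 genes higher in HighDose than in LowDose on this scale, all 8 of which are lower with TMM factors; points are the 3 libraries of each group, with the mean and SD. HighDose libraries lie above every PBS and LowDose library in each panel, and HighDose library 1 is the lowest HighDose library for all 8.

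Genes of the lysosome and of proteolysis numbered 7, all higher in HighDose than in LowDose (median log2 difference 1.17, or -0.6 with TMM factors). Against PBS the median was 0.96 for HighDose, with 5 of 7 called (97% of all tested genes), and -0.18 for LowDose. Lap3, a cytosolic leucine aminopeptidase that trims peptides, had 51.6, 53.5 and 48.2 CPM in PBS, 49.8, 50.3 and 49.7 in LowDose and 90.3, 97.8 and 111 in HighDose. PBS and LowDose were nearly equal, and each HighDose library was well above both. Gpnmb, a glycoprotein of phagocytic macrophages and of microglia around damage, had 5.72, 6.88 and 6.09 CPM in PBS, 2.02, 5.44 and 5.88 in LowDose and 7.26, 15.4 and 13.2 in HighDose. LowDose library 1 was lowest and HighDose library 1 only just above the highest PBS library. Rhbdd1, a rhomboid protease, had 9.49, 8.43 and 6.96 CPM in PBS, 6.91, 8.23 and 7.11 in LowDose and 11.7, 16.2 and 21.4 in HighDose. Rnaset2a, an acid ribonuclease of the lysosome, had 7.16, 8.04 and 5.96 CPM in PBS, 6.24, 7.43 and 4.91 in LowDose and 11.2, 18.7 and 11.9 in HighDose. Rnaset2a has a near-identical neighbouring copy, Rnaset2b, and its counts were not whole in 8 of 9 libraries, so the split of reads between the copies is uncertain.

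Dram1, a lysosomal membrane protein induced by p53 that promotes autophagy, had 2.02, 1.21 and 0.922 CPM in PBS, 1.14, 1.53 and 1.44 in LowDose and 4.68, 3.68 and 4.85 in HighDose. In CPM its distance from PBS (1.68 ± 0.36) was as large as that between the doses (1.69 ± 0.36), and it was well over 2-fold. In FPKM the same libraries had 1.68, 0.43 and 0.33 in PBS, 0.41, 0.54 and 0.51 in LowDose and 1.67, 1.31 and 1.73 in HighDose. The counts behind the PBS values were 37, 25 and 20, so the FPKM of PBS library 1 was raised far more than its count. Rab7b, a GTPase of late endosomes, and Dnase2a, the lysosomal nuclease that degrades engulfed DNA, were between 1.08 and 6.20 CPM in all libraries. Dnase2a had 2.73, 4.94 and 2.72 CPM in PBS, 2.74, 2.16 and 2.67 in LowDose and 4.73, 3.73 and 6.2 in HighDose, and its PBS and HighDose libraries overlapped.

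Transcription factors and chromatin proteins numbered 13, of which 12 were higher and 1, Npas4, lower in HighDose than in LowDose (median log2 difference 1.08, or -0.7 with TMM factors). The median was 0.74 for HighDose against PBS, with 11 of 13 called (97% of all tested genes), and -0.27 for LowDose against PBS. Ets1, a factor of lymphocytes and endothelium, had 14.2, 16.4 and 13.6 CPM in PBS, 11.3, 13.2 and 11.6 in LowDose and 18, 23.8 and 30 in HighDose. Elk3, a relative of Ets1 that acts in vessels, had 9.9, 10.7 and 9.61 CPM in PBS, 7.86, 8.61 and 9.29 in LowDose and 12.3, 16.4 and 16.2 in HighDose. In both genes the 3 groups did not overlap at all, with LowDose lowest and HighDose highest. Creb5, a factor of the CREB family, had 6.76, 4.21 and 5.67 CPM in PBS, 4.05, 3.64 and 2.99 in LowDose and 7.09, 8.9 and 11.5 in HighDose. Glis3, a zinc finger factor, had 4.91, 4.07 and 5.35 CPM in PBS, 3.5, 3.19 and 4.06 in LowDose and 6.61, 8.13 and 9.62 in HighDose. These 2 genes also had 3 groups without overlap.

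Myc, a driver of growth and division, had 3.0, 3.87 and 2.77 CPM in PBS, 2.87, 2.97 and 3.79 in LowDose and 5.56, 6.31 and 9.23 in HighDose. PBS and LowDose were alike in mean and overlapped, and the log2 difference of HighDose was 1.13 ± 0.29 from PBS and 1.14 ± 0.29 from LowDose. Dek, an abundant chromatin protein, had 46.7, 32.5 and 38.8 CPM in PBS, 50.6, 31.8 and 29.4 in LowDose and 65.3, 72.1 and 88.5 in HighDose. Bbx, an HMG box factor, had 31.6, 24.9 and 30.2 CPM in PBS, 28.9, 24.5 and 20.7 in LowDose and 42.2, 48.7 and 55.2 in HighDose. Zfp382, a KRAB zinc finger repressor, had 8.72, 4.89 and 7.56 CPM in PBS, 8.85, 5.12 and 6.04 in LowDose and 10.6, 9.95 and 13.6 in HighDose. For these 3 genes LowDose and PBS overlapped and HighDose stood above both. Ikzf2, which encodes Helios, a factor of regulatory T cells, had 2.34, 1.94 and 2.44 CPM in PBS, 1.85, 1.8 and 1.55 in LowDose and 3.06, 5.45 and 5.81 in HighDose, and all 3 groups were apart. Zfp119b, Zfp456 and Hhex were between 1.03 and 5.98 CPM in every library.

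Npas4 (ENSMUSG00000045903, chr19:4984355-4990316, minus strand), a factor that neurons switch on with activity and calcium entry, had 14.8, 21.6 and 26.2 CPM in PBS, 32.3, 37.5 and 33 in LowDose and 16.9, 17 and 13.1 in HighDose. Every LowDose library lay above every other library, and PBS and HighDose overlapped. The log2 difference was -1.13 ± 0.23 between the doses, 0.71 ± 0.22 for LowDose against PBS and -0.42 ± 0.23 for HighDose against PBS. On a list of 28 immediate early genes, 10 were in the table, and the other 9 were each called higher in HighDose than in LowDose (2 of 9 had a higher mean with TMM factors, Fosl1 and Gadd45g). Their summed level was 124 to 132 CPM in PBS, 142 to 156 in LowDose and 300.4 to 604 in HighDose. Fosb, a partner of Jun in the AP-1 dimer, had 11.4, 13.3 and 12.1 CPM in PBS, 26.4, 25.7 and 33.4 in LowDose and 27.5, 26.4 and 85.5 in HighDose. Fosb, Ptgs2 and Gadd45b shared with Npas4 that every LowDose library exceeded every PBS library. On the library total scale, Npas4 was thus the 1 gene of these 10 with its lowest mean in HighDose. Its difference between LowDose and PBS was not called with all libraries, and was called with the replicate block and without PBS library 3, HighDose library 1 or HighDose library 3. The striatal marker sums of the same libraries, given above, were 1147 to 1702 CPM in PBS and lower at both doses, and their part in Npas4 was not tested.

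The other 5 genes lower in HighDose belong to matrix, signalling, metabolism and antibody roles. In 3 of the 6 lower genes (Npas4, Fmod and Notum) every LowDose library lay above every PBS library. The same held for 6.55% of all 1710 listed genes. The rule puts the LowDose mean FPKM of the lower genes above PBS. Fmod, which encodes fibromodulin, a small leucine-rich proteoglycan that binds collagen, had 13.6, 10.4 and 14.8 CPM in PBS, 22.7, 15.1 and 18.1 in LowDose and 12.6, 7.13 and 4.64 in HighDose. Ppp1r3g, a subunit that directs protein phosphatase 1 to glycogen, had 7.36, 9.78 and 7.61 CPM in PBS, 8.22, 10.7 and 11.2 in LowDose and 6.61, 5.74 and 2.64 in HighDose. Notum, a secreted enzyme that inactivates Wnt proteins by removing their lipid, had 0.818, 1.07 and 1.48 CPM in PBS, 1.52, 2.11 and 1.82 in LowDose and 1.09, 0.813 and 0.477 in HighDose. HighDose library 3 was lowest in each of these 3 genes. Aldh1a3, a retinaldehyde dehydrogenase that makes retinoic acid, had 2.13, 2.03 and 2.21 CPM in PBS, 1.69, 2.38 and 3.21 in LowDose and 0.788, 0.957 and 1.04 in HighDose. It was the 1 lower gene with a larger difference from PBS than 2-fold in CPM (-1.19 ± 0.39), and all HighDose libraries were below all others. The 6 lower genes kept a direction below 0 with TMM factors, DESeq2 size factors or the listed sum, with log2 differences between -3.25 and -2.64.

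**Figure D3:**
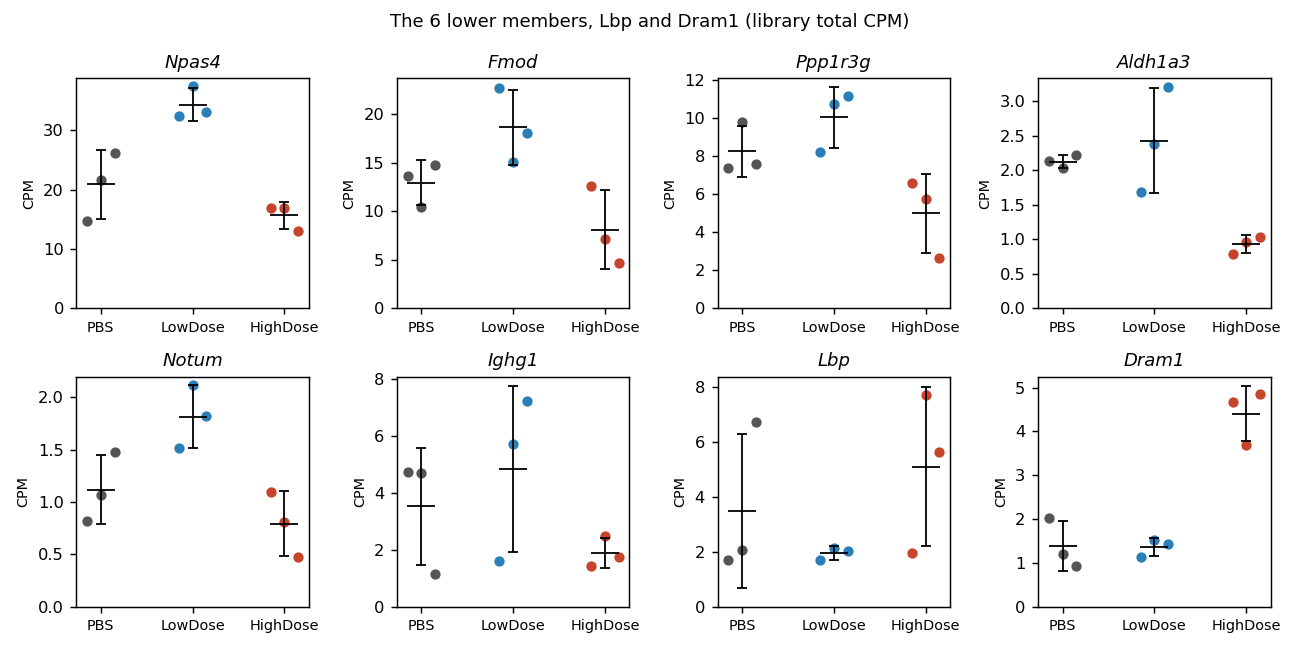
CPM of the library total (vertical axis, from 0) in each library for the 6 genes lower in HighDose than in LowDose, under every scaling run, and for Lbp and Dram1, which are higher on this scale and lower with TMM factors; points are libraries, with the mean and SD of 3. For Npas4 the LowDose libraries lie at 32.3 to 37.5 and all others at 13.1 to 26.2; for Ighg1 and Lbp the groups overlap.

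Promoter sequences show what the genes carry near their start. RefSeq promoters on GRCm38.p6, from 250 bases before to 50 after the start, were found for 69 of the 98 genes, 66 of the 92 higher and 3 of the 6 lower ones. Among 90 promoters of higher genes, the core of the interferon-stimulated response element (GAAA, any 2 bases and GAAA, on either strand) was in 3.33%, against 3.44% of all 32851 promoters. The GAS element of STAT dimers (TTCNNNGAA) was in 5.56% against 8.30%, the AP-1 site (TGANTCA) in 6.67% against 7.81%, the letters GAGGAAGT that ETS factors can bind in 2.22% against 3.20%, and the E-box CACGTG in 11.1% against 7.15%. A gene can have more than 1 promoter among the 90. The E-box matches were in promoters of Arap1, Creb5, Gm3512, Knstrn, Lap3 and Map10, some of them counted more than once. The core of the cAMP response element (TGACGT on either strand) was in 5.56% against 7.51%. It was also in 2 of the 3 promoters of lower genes, those of Npas4 and Ppp1r3g. A match is only a description of these letters. The AP-1 and cAMP motifs begin with TGA and differ at the fifth and sixth bases, and the AP-1 motif is longer. The promoters of Npas4 (chr19:4989922-4990221, minus strand) and Ppp1r3g (chr13:35967656-35967955, plus strand) are shown because they hold the cAMP core, and that of Wipf1 (chr2:73453840-73454139, minus strand) because it is 1 of 3 with the interferon core; capitals mark the matches.
Npas4: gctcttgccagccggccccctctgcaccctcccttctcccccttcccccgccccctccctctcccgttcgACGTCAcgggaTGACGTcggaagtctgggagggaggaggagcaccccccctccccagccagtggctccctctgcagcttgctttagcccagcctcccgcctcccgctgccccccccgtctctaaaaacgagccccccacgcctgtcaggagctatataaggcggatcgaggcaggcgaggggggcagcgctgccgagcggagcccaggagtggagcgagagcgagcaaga
Ppp1r3g: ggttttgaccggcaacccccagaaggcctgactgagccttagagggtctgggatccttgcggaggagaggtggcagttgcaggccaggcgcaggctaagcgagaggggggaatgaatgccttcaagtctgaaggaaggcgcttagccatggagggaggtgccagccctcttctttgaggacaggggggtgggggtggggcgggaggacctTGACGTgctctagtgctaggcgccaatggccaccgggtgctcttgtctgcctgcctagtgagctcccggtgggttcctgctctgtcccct
Wipf1: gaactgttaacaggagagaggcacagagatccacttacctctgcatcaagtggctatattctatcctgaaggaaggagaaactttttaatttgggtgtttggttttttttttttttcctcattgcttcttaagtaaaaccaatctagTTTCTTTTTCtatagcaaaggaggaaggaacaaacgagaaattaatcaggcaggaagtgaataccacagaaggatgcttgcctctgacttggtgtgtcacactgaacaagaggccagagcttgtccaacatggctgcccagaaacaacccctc

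Cell division and DNA repair genes numbered 13, all higher in HighDose than in LowDose (median log2 difference 1.22, or -0.57 with TMM factors, where 1 of 13 stayed above 0). The rule sets aside the symbols of several mitotic families, and most other listed genes with the deposited term cell cycle did not meet its fold limits. In 9 of the 13 every LowDose library lay below every PBS library, as in 29 of all 92 higher genes and 12.7% of all 1710 listed genes. The rule puts the LowDose mean FPKM of the higher genes below PBS. The median for LowDose against PBS was -0.41. For HighDose against PBS it was 0.83, with 9 of 13 called (97% of all tested genes). Tpx2, which activates Aurora A on spindle microtubules, had 4.03, 3.92 and 4.2 CPM in PBS, 2.7, 3.73 and 3.21 in LowDose and 6.78, 8.52 and 7.63 in HighDose. Smc4, a subunit of condensin, had 7.2, 3.83 and 5.53 CPM in PBS, 5.61, 3.91 and 2.62 in LowDose and 8.09, 9.09 and 12.5 in HighDose. Iqgap3, a scaffold of dividing cells, had the highest log2 difference between the doses of the 98 (1.8 ± 0.49), with 0.872, 1.26 and 1.06 CPM in PBS, 0.295, 0.45 and 0.748 in LowDose and 0.919, 2.39 and 1.86 in HighDose. HighDose library 1 of Iqgap3 was at the PBS level, so HighDose and PBS overlapped.

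Genes of the centriole and centrosome were among them. Cntrl, centriolin, had 7.58, 6.68 and 5.95 CPM in PBS, 5.23, 4.5 and 5.66 in LowDose and 9.1, 11.3 and 15.7 in HighDose. Sass6, which forms the cartwheel of new centrioles, had 4.14, 3.92 and 4.8 CPM in PBS, 3.79, 2.83 and 2.99 in LowDose and 5.82, 7.13 and 7.67 in HighDose. Katna1, the subunit of katanin that cuts microtubules, had 7.3, 7.36 and 7.19 CPM in PBS, 6.91, 6.16 and 6.89 in LowDose and 12.9, 14.5 and 16.5 in HighDose. All 3 genes had 3 groups without overlap. For DNA repair, Fanci, a Fanconi anaemia protein that marks crosslink sites, had 0.844, 0.959 and 0.477 CPM in PBS, 0.362, 0.332 and 0.607 in LowDose and 1.28, 1.42 and 1.31 in HighDose. Spidr, a scaffold of homologous recombination, had 3.22, 3.49 and 2.98 CPM in PBS, 2.84, 2.17 and 2.32 in LowDose and 4.34, 6.64 and 5.7 in HighDose. Rif1, which directs repair of double-strand breaks and the timing of replication, had 21.4, 12.9 and 17.8 CPM in PBS, 22.4, 12.8 and 15.8 in LowDose and 28, 29 and 35.7 in HighDose. Rif1 overlapped between PBS and LowDose, whereas Spidr had LowDose wholly below PBS. Hist1h1c, a linker histone, had 20.2, 21.5 and 17.3 CPM in PBS, 12.2, 14.7 and 12.5 in LowDose and 27.3, 25.6 and 35.3 in HighDose, with 3 separate groups. Histone genes of this cluster share sequence, so its counts may hold reads of other copies. Knstrn, Fam72a and Vrk2 were between 0.506 and 3.93 CPM in every library.

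Cilia and microtubule genes numbered 6, all higher in HighDose than in LowDose (median log2 difference 1.21, or -0.57 with TMM factors). Against PBS the median was 0.85 for HighDose, with 4 of 6 called (97% of all tested genes), and -0.41 for LowDose. Dnah10, a heavy chain of the dynein arms that move cilia, had 1.69, 0.63 and 1.34 CPM in PBS, 0.548, 0.405 and 0.962 in LowDose and 1.09, 1.77 and 2.95 in HighDose. Ak7, an adenylate kinase of cilia, had 1.64, 0.872 and 1.61 CPM in PBS, 0.717, 0.854 and 1.12 in LowDose and 1.84, 2.54 and 2.47 in HighDose. Mns1, a filament protein inside ciliary doublets, had 3.12, 2.62 and 4.42 CPM in PBS, 2.17, 1.32 and 2.16 in LowDose and 3.07, 7.93 and 7.66 in HighDose. LowDose was the lowest group for all 3, and HighDose library 1 lay within the PBS range for Dnah10 and Mns1. On a list of 27 cilia genes 4 were in the table, and the other 2, Dnah9 and Rsph4a, were called higher in HighDose than in LowDose (both lower with TMM factors). Tmem67, a membrane protein of the ciliary transition zone, had 7.76, 8.8 and 7.29 CPM in PBS, 8.32, 5.67 and 7.59 in LowDose and 10.9, 14.3 and 18.6 in HighDose. Map10, which binds spindle and midbody microtubules, had 3.92, 4.6 and 3.14 CPM in PBS, 3.29, 3.1 and 3.69 in LowDose and 5.95, 5.93 and 8.8 in HighDose. The sixth, 1700007K13Rik, is listed under the human symbol C9orf116, and was between 0.989 and 3.86 CPM.

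Matrix, vessel and cell contact genes numbered 13, of which 12 were higher and Fmod lower in HighDose than in LowDose (median log2 difference 1.12, or -0.7 with TMM factors). The median was 0.92 for HighDose against PBS, where 12 of 13 were called (97% of all tested genes). It was -0.2 for LowDose against PBS. Cnn3, an actin-binding calponin, was the most abundant gene of the 98 in CPM, with 78.3, 75.6 and 79.6 CPM in PBS, 68.5, 71.3 and 78.3 in LowDose and 126, 135 and 181 in HighDose. F11r, the tight junction protein JAM-A, had 8.23, 8.72 and 8.25 CPM in PBS, 7.71, 8.63 and 8.17 in LowDose and 14, 18 and 18.3 in HighDose. Nid1, nidogen of the basement membrane, had 9.7, 9.49 and 8.9 CPM in PBS, 9.06, 8.23 and 8.07 in LowDose and 13.5, 17.9 and 22.1 in HighDose. In all 3 genes PBS and LowDose were close and overlapped, and HighDose stood above. Ecm1, a secreted matrix protein, had 3.76, 3.92 and 3.27 CPM in PBS, 3.58, 4.32 and 4.43 in LowDose and 7.31, 9.57 and 10.4 in HighDose. It had the second largest distance from PBS in CPM (1.31 ± 0.27), with PBS as the lowest mean.

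Further genes of vessels and membranes followed. Cyyr1, a membrane protein, had 10.7, 10.8 and 8.99 CPM in PBS, 8.35, 9.31 and 7.48 in LowDose and 16.5, 18.1 and 23 in HighDose. Myof, myoferlin, a ferlin of membrane repair, had 4.85, 4.55 and 6.13 CPM in PBS, 5.44, 4.27 and 3.79 in LowDose and 7.53, 10.9 and 12.1 in HighDose. Pde3a, a phosphodiesterase of vascular smooth muscle, had 5.78, 4.7 and 3.97 CPM in PBS, 4.55, 2.79 and 3.1 in LowDose and 7.26, 7.46 and 8.41 in HighDose. HighDose was apart from both groups in these 3. Igsf10, an immunoglobulin superfamily protein, had 5.46, 3.81 and 4.54 CPM in PBS, 4.02, 2.47 and 3.63 in LowDose and 7.52, 10.2 and 9.74 in HighDose. Trim47, a ubiquitin ligase found in brain endothelium, had 2.29, 3.68 and 3.32 CPM in PBS, 1.98, 3.1 and 3.37 in LowDose and 4.68, 5.26 and 7.54 in HighDose. Lum, lumican, a proteoglycan of collagen fibrils made by fibroblasts, had 2.29, 1.79 and 3.64 CPM in PBS, 2.36, 2.07 and 1.98 in LowDose and 2.89, 4.07 and 6.63 in HighDose. HighDose and PBS overlapped for Lum, and HighDose library 3 was highest. Lum and Fmod belong to the same proteoglycan family and both are on a list of 28 meningeal and fibroblast genes, of which 8 were in the table. Across the HighDose libraries Lum went with the other direction from Fmod: library 3 was the highest for Lum and the lowest for Fmod. The other 6 listed genes summed to 171 to 233 CPM in PBS, 81.2 to 149 in LowDose and 121 to 203 in HighDose, and 5 of the 6 were called higher in HighDose than in LowDose (2 of 6 had a higher mean with TMM factors). Of that sum Penk, which is also a striatal marker, had 177, 204 and 139 CPM in PBS, 105, 61.3 and 41.7 in LowDose and 48.3, 53.5 and 33 in HighDose. On the library total scale, Dcn, Aldh1a2, Prg4, Cyp1b1 and Spp1 each had the lowest mean in PBS and the highest in HighDose. Of the 6 genes only Penk had its highest mean in PBS, so the lower sums at both doses came from Penk. Antxr2 and Nrap were between 0.584 and 5.46 CPM in every library.

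RNA processing and translation genes numbered 8, all higher in HighDose than in LowDose (median log2 difference 1.04, or -0.74 with TMM factors), with a median of 0.85 for HighDose against PBS and -0.15 for LowDose against PBS. Rrbp1, a ribosome receptor of the endoplasmic reticulum, had 51.1, 49.9 and 45.5 CPM in PBS, 44, 41.5 and 47.4 in LowDose and 77.2, 95.1 and 109 in HighDose. Riok3, an atypical kinase that acts in ribosome maturation and innate immune signalling, had 54.1, 46.9 and 48.1 CPM in PBS, 48.4, 45 and 46.1 in LowDose and 69.3, 78.4 and 102 in HighDose. Ptbp3, a splicing regulator, had 32.2, 28.8 and 26.9 CPM in PBS, 33.4, 26.5 and 21.4 in LowDose and 39.4, 54.1 and 68.2 in HighDose. Rrbp1, Riok3 and Ptbp3 each had all HighDose libraries above all others. Prpf38a, a spliceosome protein, had 16, 14.7 and 19 CPM in PBS, 16.4, 13.1 and 17 in LowDose and 27.3, 28.8 and 37.5 in HighDose. U2surp, which works with the U2 spliceosome particle, had 62.1, 47.5 and 51.3 CPM in PBS, 62.1, 41.3 and 40.5 in LowDose and 66.3, 67.8 and 78 in HighDose. U2surp had the smallest log2 difference between the doses of the 92 higher genes (0.56 ± 0.22), and its highest PBS and LowDose libraries came close to HighDose. Rbm47, an RNA-binding cofactor of RNA editing, had 0.545, 0.775 and 1.34 CPM in PBS, 0.59, 0.45 and 0.962 in LowDose and 1.4, 2.25 and 2.6 in HighDose. Igf2bp2 was between 0.590 and 3.21 CPM. Gm45140, listed under the symbol ISY1, had 4.97 to 11.4 CPM in LowDose and 10.0 to 19.8 in HighDose, which overlapped, and its counts were not whole in any of the 9 libraries.

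Notch and Wnt signalling held 3 genes. For Notch signalling, Dll1, a ligand of Notch receptors, had 4.63, 4.31 and 4.8 CPM in PBS, 3.03, 4.18 and 2.56 in LowDose and 5.82, 9.38 and 10.8 in HighDose. In Wnt signalling, Fzd5, a receptor, was between 1.21 and 5.33 CPM and higher in HighDose, while the Wnt inhibitor Notum, given above, was lower in HighDose. With TMM factors Dll1, Fzd5 and Notum were all lower in HighDose than in LowDose (median -0.52). Fzd5 and Notum were the only genes of the 98 in the Wnt role, and each alone is no measure of the pathway.

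Metabolism and transport genes numbered 7, of which 5 were higher and 2, Ppp1r3g and Aldh1a3, lower in HighDose than in LowDose (median log2 difference 1.06, or -0.72 with TMM factors). Car12, a membrane carbonic anhydrase, had 16.8, 16.2 and 19.8 CPM in PBS, 12.6, 10.2 and 11.5 in LowDose and 17.4, 28 and 33.4 in HighDose. LowDose was wholly below PBS for Car12, and HighDose overlapped PBS. Isoc1, an isochorismatase domain protein, had 22, 20.6 and 18.8 CPM in PBS, 17.9, 18.3 and 17.3 in LowDose and 33.8, 42.7 and 45.3 in HighDose. Atp8b1, a flippase that moves phospholipids across the membrane, had 4.85, 3.97 and 3.78 CPM in PBS, 4.85, 3.96 and 3.9 in LowDose and 5.56, 7.46 and 9.88 in HighDose. PBS and LowDose had the same mean for Atp8b1 within their spread (0.02 ± 0.28). Aqp9, a channel for water and glycerol, and Nt5dc1 were between 0.989 and 4.25 CPM in every library.

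GTPase and kinase signalling genes numbered 6, all higher in HighDose than LowDose (median log2 difference 0.94, or -0.85 with TMM factors, 5 tested there). In HighDose against PBS 5 of 6 were called (97% of all tested genes). Akap13, an anchor for protein kinase A, had 28.5, 27.3 and 25.9 CPM in PBS, 25.8, 24.3 and 24.4 in LowDose and 35.7, 41.7 and 48.7 in HighDose. Spata13, an exchange factor for Rac and Cdc42, had 14.4, 14.3 and 17 CPM in PBS, 12, 11.5 and 10.6 in LowDose and 19.8, 26.3 and 31.8 in HighDose. Arap1, a GTPase-activating protein for Arf, had 16.6, 14.6 and 17.1 CPM in PBS, 13.5, 15.5 and 16 in LowDose and 22.9, 26.4 and 25.9 in HighDose. Akap13 and Spata13 had 3 groups without overlap, while PBS and LowDose overlapped for Arap1. Ostf1, an adaptor linked to osteoclast formation, had 9.05, 8.86 and 9.96 CPM in PBS, 8.3, 9.76 and 8.71 in LowDose and 14.1, 19.1 and 18.5 in HighDose. Mob3c, a kinase cofactor, had 4.8, 4.02 and 3.27 CPM in PBS, 4.05, 2.74 and 3.58 in LowDose and 5.43, 7.27 and 7.11 in HighDose. Dennd2c was between 0.337 and 1.18 CPM.

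No role was given to 4 genes. Krcc1 had 12.8, 11.7 and 11.8 CPM in PBS, 13.2, 10.3 and 8.92 in LowDose and 17.2, 22.1 and 28.9 in HighDose. BC035044, Fndc9 and Gm3512 were between 0.748 and 7.67 CPM, and the highest value was Fndc9 in HighDose library 3, where the other HighDose libraries had 2.63 and 3.11. Gm3512 counts were not whole in any library. Outside the rule that decided for which genes every library is given were 27 genes, among them Cd14, Dnase2a and Ikzf2, whose values were added after they had been seen. The 27 covered 0.337 to 19.8 CPM. HighDose and LowDose libraries did not overlap for 26 of the 27, against 92.7% of all 1710 listed genes.

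Replicate libraries were compared over all 98 genes. HighDose and LowDose libraries did not overlap in CPM for 95 of the 98 (90 above and 5 below), against 92.7% of all 1710 listed genes (86.7% above and 5.96% below), and Lbp, Gm45140 and Ighg1 were the 3 that overlapped. HighDose and PBS did not overlap for 80, 78 above and 2 below, against 95.8% of listed genes (86.1% above and 9.71% below). LowDose and PBS did not overlap for 32, with LowDose below in 29 and above in 3, against 19.3% of all listed genes (12.7% below and 6.55% above). With TMM factors, DESeq2 size factors or the listed sum, 68, 64 and 76 genes had HighDose wholly below LowDose and 0 had it above. The share of all listed genes without overlap with these scalings is not given here, so these counts describe the 98 alone. Calls are a different measure: over all tested genes, those between the doses with these scalings were 475, 497 and 454 higher and 481, 447 and 525 lower.

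**Figure D4:**
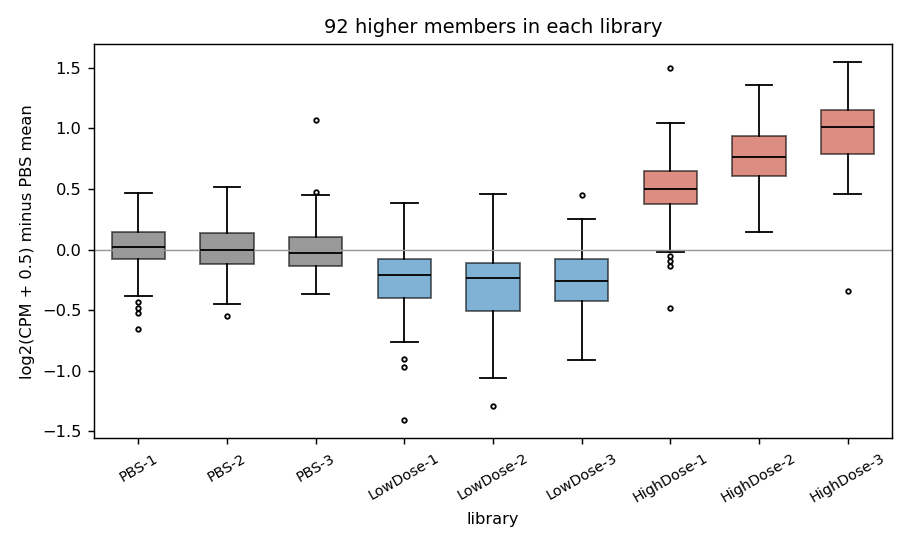
For each of the 9 libraries (horizontal axis), the box spans the quartiles over the 92 higher genes of log2(CPM + 0.5) minus the mean of the PBS libraries (vertical axis), with the median as a line and outlying genes as circles. The medians of the HighDose libraries are 0.50, 0.77 and 1.01, and those of LowDose -0.21, -0.24 and -0.26; with TMM factors 1 of 91 tested higher genes stays above 0 in HighDose against LowDose.

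HighDose library 1 was the closest to PBS across the genes and library 3 the farthest. Over the 92 higher genes the median log2 distance from PBS was 0.50, 0.77 and 1.01 in HighDose libraries 1, 2 and 3. Library 1 was the lowest HighDose library for 77 of the 92 and library 3 the highest for 67. The same order held for all listed genes (1.08, 1.4 and 1.6) and for the 20 interferon-stimulated genes (5.98, 6.53 and 6.75). The LowDose libraries lay at -0.21, -0.24 and -0.26, close together. The 19 striatal markers had medians of -0.60, -1.4 and -1.91 in LowDose libraries 1, 2 and 3 and of -1.74, -1.71 and -2.08 in HighDose, and their part in the levels of the 98 genes was not tested. Membership depended on the libraries: without HighDose library 1 the rule gave 50 genes, all among the 98, and without HighDose library 3 it gave 89, of which 57 were among the 98. Only 16 of the 98 met the rule whichever single library was left out, and these include Creb5, Glis3, Hist1h1c, Selplg, Ecm1, Pde3a, Spidr, Dnase2a and Npas4.

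The unit also decided membership. In CPM, 81 of the 98 were at least 2-fold apart between the doses, 71 met the whole rule, 10 were at least 2-fold from PBS in HighDose and 1, Iqgap3, in LowDose. The length implied by CPM over FPKM differed at least 1.5-fold between libraries for 19 genes and under 1.1-fold for 41. Rbm47 had an FPKM of 0.36, 0.23 and 0.40 in PBS, 0.18, 0.10 and 0.29 in LowDose and 0.50, 0.67 and 0.74 in HighDose, and Ikzf2 of 0.77, 0.21 and 0.30 in PBS, 0.26, 0.24 and 0.17 in LowDose and 0.33, 0.76 and 0.79 in HighDose. U2surp had an FPKM of 12.6, 8.18 and 9.89 in PBS, 12.1, 7.19 and 8.12 in LowDose and 14, 14.4 and 27 in HighDose, where HighDose library 3 was much higher than the other HighDose libraries, although in CPM the 3 were 66.3, 67.8 and 78.0. For these 3 genes the FPKM ratio carries a change of the estimated transcript length as well as of the count.

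**Figure D5:**
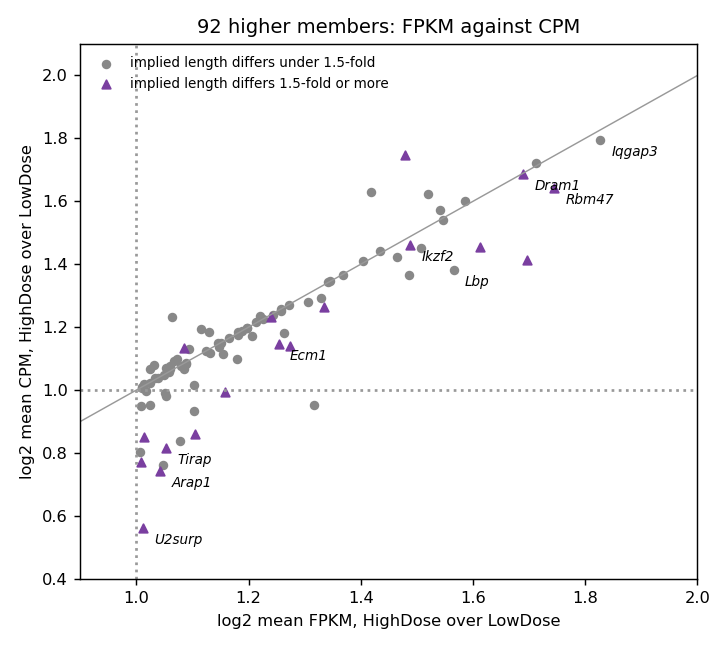
Each point is 1 of the 92 higher genes, with the log2 ratio of HighDose to LowDose in mean FPKM (horizontal axis) and in mean CPM (vertical axis); dotted lines mark 2-fold and the solid line equal ratios, and triangles are genes whose implied length differs at least 1.5-fold between libraries. Many circles lie near the line, and 17 genes, U2surp and Arap1 among them, fall below 2-fold in CPM; with TMM factors 1 of 91 tested higher genes has a CPM ratio above 0.

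Just inside the limit between the doses were Elk3 (2.01-fold in mean FPKM), Ppp1r3g (2.01-fold lower) and Zfp382 (2.01-fold), and the table has no gene outside it in all comparisons. Against PBS in HighDose, Gpnmb, F11r and Rnaset2a were just inside at 2.0-fold, and Abcb1b, Lrrc32 and P2ry6 just outside at 2.0-fold, with 1072 genes beyond. Rab7b (1.95-fold lower), Dnah10 (1.93-fold lower) and Notum (1.92-fold higher) were just inside the limit of LowDose against PBS. Arhgap28 (2.0-fold lower), Smpdl3b (2.07-fold lower) and Chaf1b (2.17-fold lower) were just outside it.

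In the deposited Gene Ontology terms, which the rule did not use, 9 of the 98 genes (9.18%) had the term cell cycle, against 3.45% of all listed genes, and these were Katna1, Knstrn, Tpx2, Sass6, Smc4, Rif1, Fanci, Map10 and Cntrl. The term cytoskeleton was held by 14 (14.3% against 5.50%). Immune system process was held by 9 (9.18% against 13%), plasma membrane by 21 (21.4% against 33.2%) and nucleus by 34 (34.7% against 29.0%). Of the 5 genes left out by symbol, Kif11, Ccnb1 and Mcm3 act in mitosis and replication. The genes lay on 19 chromosomes, 97 of them protein coding and 1 an immunoglobulin constant gene.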

How the data were processed

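Total RNA of 9 libraries (3 groups of 3) was measured. The authors deposited estimated counts per gene, made on mouse build mm10 per the submitters' processing notes, which name DESeq2 and edgeR without a role; no source used here gives the aligner or the counter. FPKM values, counts per transcript length and library total, stand beside them per the file headers. The table holds 1710 genes, each at least 2-fold apart between some groups, so its column sums are not depths. Library totals (18.3 to 23.7 M) were recovered from count, FPKM and length of 23 to 68 single-transcript genes of GENCODE M21 per library. CPM are counts per M (1e6) of these totals.

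Counts, of which 7.66% to 14% per library were not whole within 0.001, were rounded for the fit. Genes were filtered with filterByExpr (minimum count 10, 1583 kept, all 98 described genes among them) and compared by edgeR's quasi-likelihood test in 1 model of 3 groups (versions: edgeR 4.0.16, limma 3.58.1, R 4.3.3), with Benjamini-Hochberg adjustment over all tested genes and a threshold of 0.05. SE is the log2 difference over the square root of F, and approximate. No pair of libraries had identical counts (0 pairs). The test was also run on simulated counts for HighDose against LowDose (1235 genes). It recovered 18%, 80%, 100% and 100% of genes changed by 0.5, 1, 2 and 3 on the log2 scale, with 5.73% false calls. The simulation used the same spread for every gene and changed a minority of genes, equally often up and down. Its rates may differ for the real counts, where most tested genes were called higher in HighDose.

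The 98 genes and the gene lists were chosen with earlier results of these data known. Values of every library are given for the 8 highest and 8 lowest ratios between doses among genes of at least 1 CPM in 1 group, for genes on a marker list, and for genes of at least 5 CPM in 1 group whose HighDose and LowDose libraries did not overlap, 71 in all. P2ry12, Olfml3, Aqp1, Kcnj13, Fosb, Ptgs2, Gadd45b, Penk, Cd14, Dnase2a and Ikzf2 were added after their values were seen. As alternatives, libraries were scaled by TMM, by size factors (DESeq2 1.42.0) or by the listed sum, and the others were no filter, the DESeq2 Wald test, limma-voom, a replicate block, other means and limits in the rule, and each library left out. The use of GENCODE names was chosen after seeing the data. Other steps ran in Python 3.11.15 with matplotlib 3.10.9 and pandas 2.3.3.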

Additional observations from a re-analysis of the deposited data

How the results depend on the processing

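Scaling within the table turned the direction. Called genes of the 98 between HighDose and LowDose were 98 (92 higher) on library totals, and 64 with TMM factors, 58 with DESeq2 size factors and 68 with the sum of listed counts, all lower. Against PBS in HighDose they were 76 (72 higher), and 92, 89 and 89, all lower. Genes without overlap between the doses were 95, and 68, 64 and 76, all with HighDose below. The share of all listed genes without overlap was 92.7% on library totals and is not given for the other scalings. Of the 71 genes with values in every library, 64 had the other sign with TMM factors and 62 with DESeq2 size factors, and 0 with the replicate block or without any single library. Over all tested genes, the calls between the doses went from 1394 higher and 112 lower to 475 and 481 (TMM), 497 and 447 (DESeq2 size factors) and 454 and 525 (listed sum). Those of HighDose against PBS went from 1366 and 169 to 504 and 478, 526 and 455, and 524 and 453, and those of LowDose against PBS from 7 and 34 to 3 and 2, 3 and 2, and 8 and 2. These 3 scalings take the listed genes as mostly or jointly unchanged, whereas every listed gene was at least 2-fold apart in some pair of groups. Of the library totals, the listed genes held 1.34% to 1.61% in PBS and LowDose and 3.9% to 6.04% in HighDose. No scaling was tested against genes outside the table.

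The rule gave 45 genes at a 1.8-fold limit, 111 at 2.2-fold (54 of them among the 98), 122 with geometric means (70), 82 with medians (48), 84 in CPM (71), 93 with a mean FPKM of at least 0.5 in 1 group and 95 with GENCODE names. Leaving out 1 library gave 50 (without HighDose replicate 1) to 107 (without PBS replicate 3).

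Between LowDose and PBS, 0 of the 98 were called, and 0 to 2 without 1 library: Npas4 without PBS replicate 3 or HighDose replicate 3, Gm45140 without LowDose replicate 1, and Npas4 and Car12 without HighDose replicate 1. For HighDose against PBS, leaving out 1 library changed the 76 called genes of all libraries. The fewest were called without PBS replicate 2 (58 higher and 2 lower, against 1393 and 157 of all 1651 tested genes). The most were called without HighDose replicate 1 (84 higher and 4 lower, against 1427 and 170 of all 1633 tested genes). Same-numbered libraries of different groups had correlations of deviations between -0.005 and 0.247 (median 0.137), others between -0.18 and 0.131 (median -0.06). Same-numbered PBS and LowDose libraries had 0.247, 0.165 and 0.137, and same-numbered pairs with HighDose lay between -0.005 and 0.183. Not every same-numbered pair was over 0.1, and the numbers were not taken as pairs. With the replicate block 98, 78 and 1 (Npas4) of the 98 were called in HighDose against LowDose, HighDose against PBS and LowDose against PBS. Over all 1583 tested genes the calls in these comparisons were 1395 higher and 120 lower, 1368 and 169, and 12 and 50. Depth limits the genes near 1 CPM: the lowest count of any of the 98 in a library was 5, and each group has 3 libraries.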
